A study of Rattus norvegicus with 4 samples.

Results

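Stretches of 1 Mb in which strong CD44 ChIP-seq peaks crowd together over a moderately raised local background were examined in rat nucleus pulposus cells. The 4 stretches lie on chromosome 9 from 4000001 to 5000000, chromosome 1 from 63000001 to 64000000, chromosome 7 from 22000001 to 23000000 and chromosome 3 from 75000001 to 76000000 of Rnor_6.0. Every peak that starts inside one of them is a member, which gave 716 of the 289279 peaks of cells kept in 10% serum and 1089 of the 409937 peaks of cells starved in 0.1% serum. Nucleus pulposus cells come from the gel-like core of the intervertebral disc. For each condition the study made 1 CD44 precipitation and 1 input, which is DNA sequenced without precipitation, and the authors deposited 1 peak list. The labels give no strain, age or number of animals. Single libraries leave every value without a replicate check, so each difference given here describes these libraries alone.

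CD44 is a receptor for hyaluronan that spans the cell membrane. Proteases can release its intracellular part, which has been described in the nucleus. In a ChIP-seq peak list, each pile of sequenced fragments is weighed against a local background, which is the number of fragments expected at that place. A tall pile over a high background can therefore reach the same q-value as a low pile over a low background. Gene models of Rnor_6.0 were not used here, so the stretches are described by their peaks and not by their genes.

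The stretches were chosen on the number and the background of their strong peaks, so those values are a description and support nothing. A strong peak is one with a −log10 q of at least 5, where q is the p-value after correction over the whole list. Such peaks made up 1.22% of the serum list and 13.0% of the starved list. Read totals were not used here, and the lists are on different scales. The lowest background of a list was 1.502 fragments for serum and 0.0996 for starved cells, and a strong peak inside the stretches had a pileup of at least 13 fragments in serum and at least 5 in starved cells. Fold enrichments and pileups are the authors' values for a peak within its own list.

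The chromosome 9 stretch had 75 strong serum and 52 strong starved peaks. The chromosome 1 stretch had 12 serum and 56 starved strong peaks, the chromosome 7 stretch 13 and 34, and the chromosome 3 stretch 5 and 48. Together the stretches held 105 of the 3539 strong serum peaks (2.97%) and 190 of the 53117 strong starved peaks (0.358%), against 0.248% and 0.266% of all peaks. Inside the stretches the peaks nearest to the limit had a −log10 q of 5.01 and 5.00 for serum and of 5.03 and 5.00 for starved cells, the second value of each pair lying just under the limit.

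The chromosome 9 stretch was the one with the most strong serum peaks among the 2791 windows of 1 Mb that held a strong peak of either list on a placed chromosome. The next window had 17, and the median window had 1 serum and 18 starved strong peaks. In 1 of these windows, the chromosome 9 stretch, strong serum peaks outnumbered the starved ones. The chromosome 1 stretch ranked first for strong starved peaks and 8th for serum peaks. The chromosome 7 stretch ranked 5th in serum but 40th in starved cells, and the chromosome 3 stretch ranked 4th in starved cells but 58th in serum. Windows with equal counts took the same rank. The chromosome 3 stretch had 5 strong serum peaks, and 107 windows had 5 or more. The chromosome 13 window from 33000001 also had its 48 strong starved peaks.

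**Figure D1:**
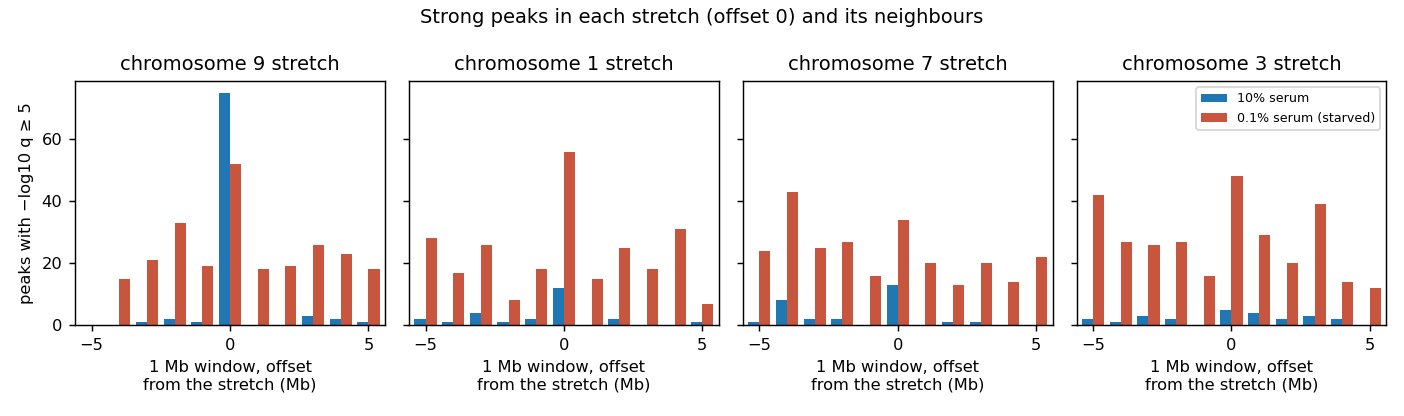
Number of strong peaks, whose −log10 q is 5 or more (vertical axis), in windows of 1 Mb around each stretch, by offset from the stretch in Mb (horizontal axis); blue bars are the serum list and red bars the starved list, and chromosome 9 has only 4 Mb to its left. At offset 0 the chromosome 9 stretch has 75 serum peaks where its neighbouring windows have at most 3, while the starved bars rise less above theirs.

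Against the 5 Mb on either side the serum excess was steep on chromosome 9 and small on chromosome 3. The chromosome 9 flanks, which are 9 Mb long because the chromosome begins 4 Mb before the stretch, held 10 strong serum peaks, or 1.11 per Mb. That is a density ratio of 67.5 between stretch and flanks (exact 95% interval 34.8 to 146). The ratio was 9.23 on chromosome 1 (interval 3.85 to 21.9) and 8.67 on chromosome 7 (interval 3.80 to 19.5). On chromosome 3 it was 2.63, with an interval from 0.768 to 7.29. Single flank windows held up to 8 strong serum peaks on chromosome 7, against 13 in the stretch, and up to 4 on chromosome 3, against 5. On chromosome 1 the highest flank window had 4, against 12, and on chromosome 9 it had 3, against 75. All intervals here are exact, are no test of stretches chosen for their counts, reflect counting error alone, and treat neighbouring peaks as independent, which they are not.

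The starved excess was lower and more even. The starved density ratio of strong peaks was 2.90 on chromosome 1 (interval 2.12 to 3.93), 2.44 on chromosome 9 (interval 1.76 to 3.33), 1.91 on chromosome 3 (interval 1.37 to 2.60) and 1.52 on chromosome 7 (interval 1.03 to 2.18). The flanks themselves held 19.3 to 25.2 strong starved peaks per Mb. A single flank window on chromosome 7 had 43 strong starved peaks, more than the 34 of the stretch itself, and one on chromosome 3 had 42 against 48. On chromosomes 9 and 1 no flank window had more than 33 and 31.

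The background of all peaks in the stretches was higher than in the pooled flanks in both lists, and it too entered the choice of the stretches. It is given here as a multiple of the lowest background of the same list, and a background above 2 times the lowest is called raised. Over the whole lists, 9.15% of serum and 25.0% of starved peaks had a raised background. On chromosome 9 it was raised for 61.4% of the serum and 63.6% of the starved peaks, against 15.9% and 34.4% in the flanks. On chromosome 7 the shares were 63.1% and 66.8%, on chromosome 1 they were 53.0% and 41.3%, and on chromosome 3 they were 30.4% and 44.1%. The flanks of these 3 stretches had 9.86% to 26.9% for serum and 28.4% to 41.9% for starved cells. Single flank windows came near or passed the stretches. The window 4 Mb after the chromosome 9 stretch had a starved median of 2.87 times the lowest, against 2.31 in the stretch, and 1 window beside the chromosome 1 stretch had 1.77, against 1.75. The window 2 Mb before the chromosome 7 stretch had a serum median of 3.02, against 3.62.

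The backgrounds were moderate in 3 stretches and higher on chromosome 7. The median background of strong serum peaks was 2.86 times the lowest on chromosome 9 (quartiles 1.79 and 3.62), 3.30 times on chromosome 1 and 3.26 times on chromosome 3, close to the 3.26 times of all strong serum peaks. On chromosome 7 it was 9.41 times (quartiles 4.04 and 15.9), and among serum peaks of any strength there the highest background was 40.5 times. In the starved list the strong peaks of chromosome 7 had a median of 5.68 times, against 2.48, 3.21 and 2.66 times on chromosomes 9, 1 and 3 and 1.42 times over the whole list. Stretches on chromosome 1 from 180000001 and chromosome 13 from 33000001 were taken for comparison. Outside the 4 stretches they had the most strong serum peaks (17 and 15, ties ordered by strong starved peaks). They held 54 and 48 strong starved peaks. The medians of their strong peaks stood at 38.7 and 19.2 times in the starved list and at 26.4 and 35.1 times in the serum list. Chromosome 7 thus lay between these and the other 3 stretches. A raised background held for 51 of 75 strong serum peaks on chromosome 9 (68.0%) and for 28 of 30 on the other stretches, against 74.7% of all strong serum peaks. For strong serum peaks of the pooled flanks the share was 86.0%, against 75.2% in the pooled stretches, and beside chromosome 9 it was 10 of 10. On chromosomes 1, 7 and 3 the stretch was higher, with 91.7%, 92.3% and 100%, against 76.9%, 80.0% and 89.5% in the flanks. The flank medians of strong serum peaks were 7.15, 3.35, 4.82 and 3.26 times the lowest on chromosomes 9, 1, 7 and 3. Among strong starved peaks a raised background held for 126 of 190 (66.3%), against 26.6% over the list and 37.0% in the flanks.

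**Figure D2:**
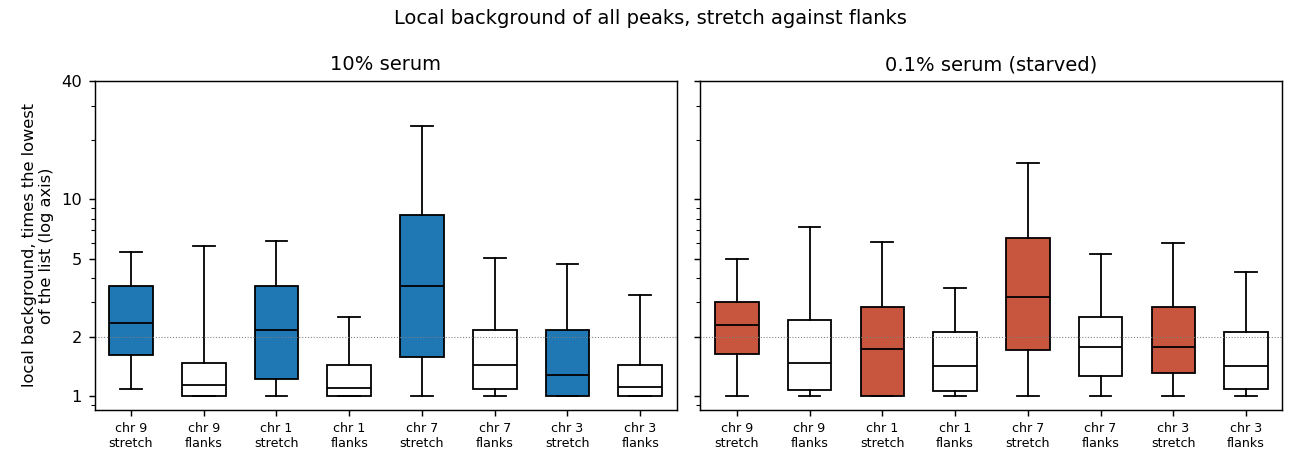
Local background of every peak as a multiple of the lowest of its list (vertical log axis), for each stretch (filled boxes) and its flanks (white boxes), with the serum list on the left and the starved list on the right. Boxes span the quartiles with the median as a line, whiskers reach the 5th and 95th percentiles, and the dotted line marks 2 times the lowest. The chromosome 7 stretch has the highest medians, 3.62 in serum and 3.19 in starved cells.

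The strong peaks were also counted by background, again as a description, since both values entered the choice of the stretches. In the starved list the stretches held 64 strong peaks whose background was not raised, or 16.0 per Mb, against 13.9 per Mb in the flanks (ratio 1.15). Without chromosome 9 the values were 14.0 and 14.0 per Mb (ratio 1.00). Strong starved peaks with a raised background numbered 126, or 31.5 per Mb, against 8.18 per Mb in the flanks (ratio 3.85). On chromosome 7 the low-background starved peaks were fewer per Mb than in its flanks, 7 against 11.7.

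In the serum list the chromosome 9 stretch held 24 strong peaks whose background was not raised, while its 9 Mb of flanks held 0, a count that allows up to 3. These 24 peaks were 2.68% of all 894 strong serum peaks of this kind. That is near the share of the stretch in all strong serum peaks, 2.12%, and in those with a raised background, 1.93%. The other 3 stretches together had 2 such peaks, against 8 in their flanks. With a raised background, the chromosome 9 stretch had 51 strong serum peaks against 10 in its flanks, and the other 3 stretches had 28 against 39 in 30 Mb of flanks (ratio 7.18).

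Within the chromosome 9 stretch the strong peaks formed clusters. The first 200 kb held 39 of the 75 strong serum peaks and 20 of the 52 strong starved peaks. A second cluster from 4600001 to 4700000 held 17 and 6, and the 100 kb from 4800001 to 4900000 held 9 and 9. Between them, the 100 kb from 4500001 to 4600000 had 4 serum and 9 starved peaks of any strength. The 100 kb just before the stretch had 4 serum and 3 starved peaks, and the first 100 kb inside had 47 and 54, so that both lists changed density at the same edge. The last 100 kb had 12 and 14 peaks, and the next 100 kb beyond the stretch 13 and 15. Neighbouring strong serum peaks were separated by a median of 2.86 kb, against 239 kb in the flanks.

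**Figure D3:**
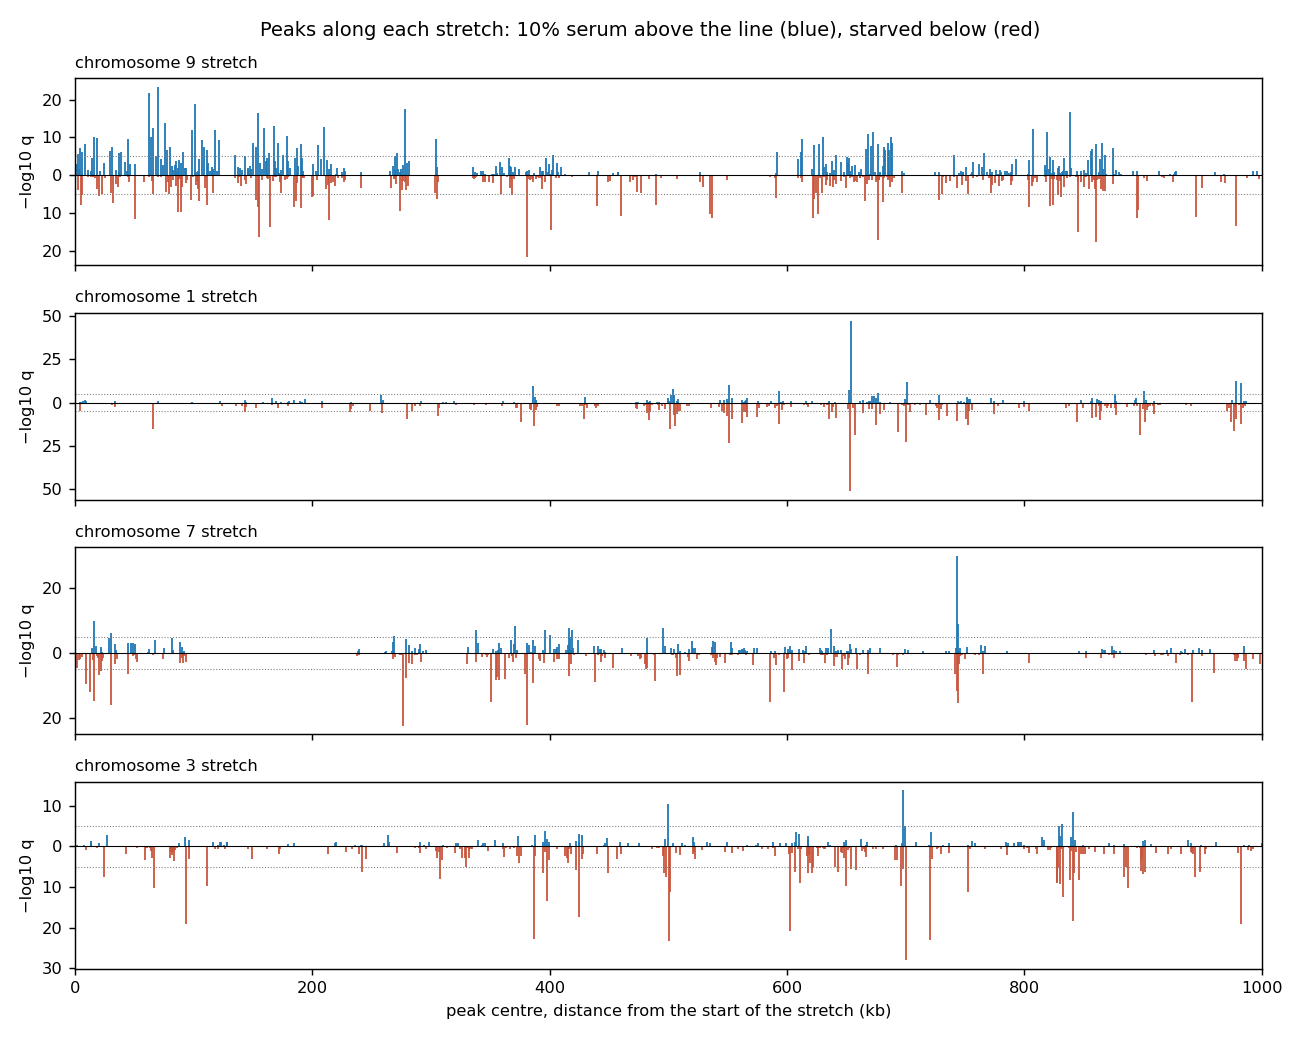
Each peak drawn as a line at its centre along the stretch (horizontal axis, kb from the start of the stretch), with its −log10 q as height, serum peaks upward in blue and starved peaks downward in red; dotted lines mark a −log10 q of 5. On chromosome 9 the serum lines crowd into the first 200 kb and around 600 to 700 and 800 to 900 kb, and on chromosome 7 neither list has a line for the 143.6 kb after the first cluster.

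The strongest serum peaks of chromosome 9 had weak starved partners. The serum peak with the lowest q ran from 4068901 to 4070695 with a fold enrichment of 10.2, a −log10 q of 23.3 and a pileup of 35. It overlapped 2 starved peaks with pileups of 2 and 1, neither with a −log10 q above 0.525. The second, from 4061770 to 4063219, had the highest fold enrichment of the stretch in its list (11.6) at the lowest background. Its starved partner was 1 fragment. The third, from 4100238 to 4101224, had a pileup of 43 over a background of 5.77 fragments and no starved partner. None of these 3 serum peaks overlapped a strong starved peak.

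The strongest starved peaks of the same stretch lay elsewhere in it. The first, from 4380760 to 4381176, had a pileup of 18 over a background of 0.368 fragments and a −log10 q of 21.5. The serum peak over it had a fold enrichment of 2.31 and a −log10 q of 1.15. The second and the third starved peak, from 4860288 to 4860729 and from 4676330 to 4676738, had −log10 q values of 17.5 and 17.0. Both fell within long serum peaks, of 4036 bp and 1706 bp, with −log10 q values of 8.36 and 8.22.

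Serum peaks of chromosome 9 were long. Strong serum peaks there had a median length of 1017 bp (quartiles 660 and 1542 bp), against 744 bp in the flanks and 471 bp over the whole list. The longest peak of the entire serum list lay in the stretch, from 4623773 to 4629906, with 6134 bp, a pileup of 34 and a fold enrichment of 4.06. It covered 5 separate starved peaks of 217 to 788 bp, of which 1 was strong (−log10 q 10.2). Of the 80 serum peaks of 2 kb or more, 12 (15.0%) lay in this stretch, and of the 12 of 3 kb or more, 5 did (41.7%). Peaks of 1 kb or more, which made up 1.10% of the serum list, numbered 72 here, or 72 per Mb against 0.667 per Mb in the flanks. In the starved list 4 peaks of the stretch reached 1 kb, against 3.33 per Mb in its flanks, and strong starved peaks had a median of 413 bp, against 344 bp in the flanks.

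On chromosomes 1 and 3 the strong starved peaks were long, and peaks of 1 kb or more were denser than in the flanks in both lists. Strong starved peaks had a median length of 807 bp on chromosome 1 (quartiles 402 and 1790 bp) and 924 bp on chromosome 3 (quartiles 337 and 1824 bp), against 335 and 403 bp in their flanks. Peaks of 1 kb or more, 1.83% of the starved list, numbered 36 on chromosome 1 and 26 on chromosome 3. Their flanks had 5.70 and 6.30 per Mb. Serum peaks of that length numbered 12 and 8 in these stretches, against 1.70 and 1.10 per Mb in their flanks. Strong serum peaks had a median of 634 bp on chromosome 1, against 438 bp in its flanks, and of 421 bp on chromosome 3, against 482 bp. On chromosome 7 there were 9 serum peaks of 1 kb or more, against 0.700 per Mb in the flanks, and 3 starved ones, against 2.90 per Mb.

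**Figure D4:**
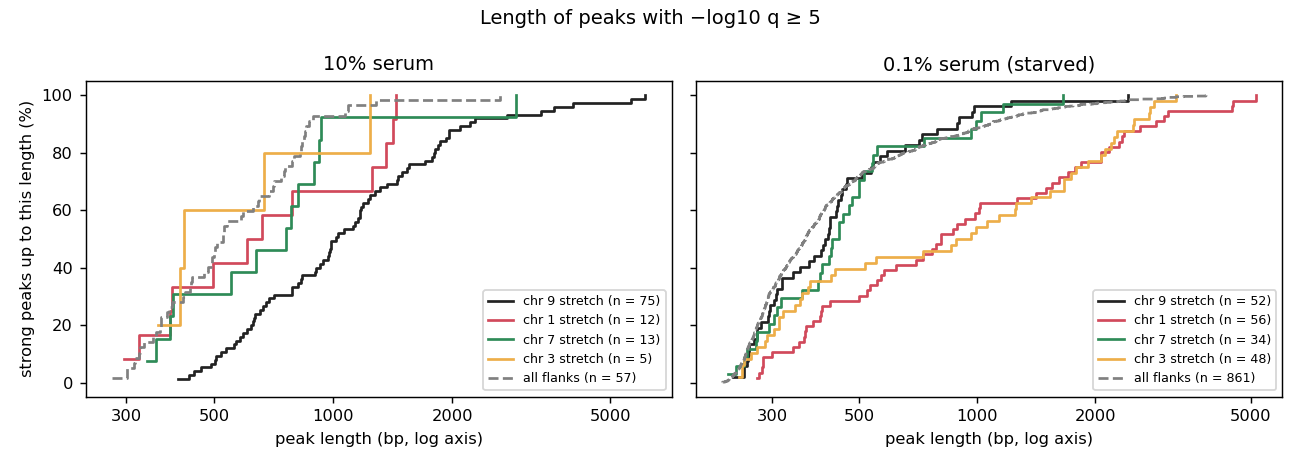
Share of strong peaks (vertical axis, %) up to a given length (horizontal log axis, bp) in each stretch (solid lines) and in all flanks together (dashed line), for the serum list on the left and the starved list on the right; the number of peaks stands in the legend. The chromosome 9 line lies furthest right in the serum list, with a median of 1017 bp, and the chromosome 1 and 3 lines lie furthest right in the starved list, with medians of 807 and 924 bp.

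The covered bases depend on both the number and the length of the peaks. On chromosome 9 peaks of any strength were 3.11 times as dense as in the flanks in serum. In starved cells they were 2.15 times as dense, and their summed length per Mb was 2.38 times that of the flanks. Serum peaks covered 244 kb of the chromosome 9 stretch (24.4%), against 3.89% of its flanks, and starved peaks covered 114 kb (11.4%), against 4.78%. On chromosome 1 the order was the other way, with 60.0 kb covered by serum and 173 kb by starved peaks. On chromosome 3 they covered 63.9 and 120 kb, and on chromosome 7 they covered 86.3 and 74.0 kb. Bases covered in both lists were 60.1 kb on chromosome 9, which is 24.6% of the serum and 52.8% of the starved bases there. On chromosome 1 they were 42.1 kb, or 70.1% of the serum and 24.4% of the starved bases.

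On chromosome 1 the leading peaks of the 2 lists coincided. The strongest serum peak, from 63653454 to 63654060, had a pileup of 68 over a background of 4.89 fragments, a fold enrichment of 11.7 and a −log10 q of 46.9. It lay inside the strongest starved peak, from 63652192 to 63654558, which had a pileup of 37 over 0.495 fragments, a fold enrichment of 25.4 and a −log10 q of 51.2. The second starved peak, from 63551067 to 63551850 (−log10 q 23.4), met a serum peak of −log10 q 10.1 over a background 15.6 times the lowest, the highest background of the serum peaks in this stretch. The third starved peak, from 63699264 to 63701439 (−log10 q 22.7), spanned 2 serum peaks, one of which ranked 3rd by q in the serum list of this stretch (−log10 q 11.7).

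Strong starved peaks of chromosome 1 thickened in the second part of the stretch. The 5 bins of 100 kb from 63500001 on held 43 of the 56 strong starved peaks and 11 of the 12 strong serum peaks. The bin with the most was 63500001 to 63600000, with 13 strong starved and 3 strong serum peaks. The longest starved peak there, from 63672384 to 63677527, measured 5144 bp and ranked 11th in its whole list. It spanned 3 serum peaks of 394 to 788 bp, with −log10 q values of 2.73 to 5.77.

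On chromosome 3 the strong serum peaks met strong starved peaks, but the strongest peaks of the 2 lists did not coincide. All 5 strong serum peaks overlapped a strong starved peak. The strongest, from 75697686 to 75698047, had a pileup of 31 and a −log10 q of 13.8, and the starved peak over it had a −log10 q of 5.53. The strongest starved peak, from 75698760 to 75700877 (pileup 21, −log10 q 28.0), began 712 bp beyond the end of that serum peak and met a serum peak that just missed the limit (−log10 q 4.98). The second serum peak, from 75499675 to 75500085 (−log10 q 10.4), lay within the second starved peak, from 75499512 to 75501043 (−log10 q 23.3). The third starved peak, from 75720509 to 75720799 (−log10 q 23.0), had a pileup of 14 at the lowest background of its list and no serum partner. Of the 48 strong starved peaks, 26 lay in 2 bins of 100 kb, which start at 75600001 and 75800001 and hold 13 each.

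On chromosome 7 the leading serum peaks had strong starved partners, while the leading starved peaks lay elsewhere. The strongest serum peak, from 22742693 to 22743080, with a pileup of 48 over 3.99 fragments and a −log10 q of 29.8, matched a starved peak from 22742687 to 22743078 with a −log10 q of 11.8. After 598 bp, a serum peak from 22743679 to 22744318 (−log10 q 8.80) matched a starved peak with a −log10 q of 15.4. The second serum peak by q, from 22015946 to 22016339, had a pileup of 56 over a background of 16.9 fragments, 11.2 times the lowest, and its starved partner stood at 10.6 times. The strongest starved peak, from 22276035 to 22276766 (pileup 16, −log10 q 22.5), had no serum partner. The second, from 22380589 to 22381580 (pileup 31, −log10 q 22.3), had a background 20.6 times the lowest and overlapped a weaker serum peak (−log10 q 3.14) at 15.3 times. The third, from 22029974 to 22030444 (pileup 20, −log10 q 16.2), did overlap a strong serum peak (−log10 q 6). The longest serum peak, from 22635605 to 22638499, measured 2895 bp at the lowest background and met 1 starved peak of 1 fragment.

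Overlap between the lists was more frequent in the stretches than beside them. Over the whole lists, 15.7% of serum peaks overlapped a starved peak and 11.0% of starved peaks overlapped a serum peak, by at least 1 bp. In the stretches 378 of 716 serum peaks did (52.8%, interval 49.1 to 56.5), against 19.5% in the flanks, and 406 of 1089 starved peaks did (37.3%, interval 34.4 to 40.2), against 12.0%. The serum share ran from 37.8% on chromosome 3 and 41.7% on chromosome 7 to 57.7% on chromosome 9 and 73.9% on chromosome 1. The starved share ran from 20.8% on chromosome 3 to 64.2% on chromosome 9. These shares also move with the covered bases given above, since a list that covers more of a stretch is met more often. The part of coverage in them was not tested. Frequent overlap was not particular to the 4 stretches. In the comparison stretches of high background on chromosomes 1 and 13, 81.3% and 63.6% of serum peaks overlapped a starved peak. Of their starved peaks, 61.8% and 42.6% overlapped a serum peak.

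Strong peaks gave a different order. Of the 105 strong serum peaks, 82 (78.1%, interval 69.0 to 85.6) overlapped a starved peak. This share is under the 90.3% of the whole list and the 93.0% of the pooled flanks. The stretches differed in this. All 12 strong serum peaks of chromosome 1 and all 5 of chromosome 3 had a starved partner, while 56 of 75 on chromosome 9 and 9 of 13 on chromosome 7 did. With a strong starved partner the counts were 16 of 75 on chromosome 9 (21.3%) and 5 of 13 on chromosome 7. They were 11 of 12 on chromosome 1 and 5 of 5 on chromosome 3. The share with such a partner was 73.0% over the whole list and 71.9% in the pooled flanks. By chromosome the flanks had 5 of 10 on chromosome 9, 12 of 15 on chromosome 7, 8 of 13 on chromosome 1 and 16 of 19 on chromosome 3. With a starved partner of any strength the chromosome 9 flanks had 8 of 10. The chromosome 9 stretch held 19 of the 344 strong serum peaks without a starved partner.

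Strong starved peaks with a serum partner numbered 120 of 190 (63.2%, interval 55.9 to 70.0), against 21.6% over the list and 24.7% in the flanks. Per stretch they were 41 of 52 on chromosome 9, 39 of 56 on chromosome 1, 25 of 48 on chromosome 3 and 15 of 34 on chromosome 7. In the comparison stretches of high background on chromosomes 1 and 13 the shares were 81.5% and 66.7%. A strong serum partner was met by 38 of the 190 (20.0%), against 4.78% over the list. Those with a partner were longer, with a median of 748 bp against 355 bp for those without one, and had a higher background, 3.55 against 1.72 times the lowest. The flanks had a like split, 768 against 332 bp and 2.93 against 1.42 times the lowest.

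Backgrounds of overlapping peaks rose together across the lists. Their q-values did so to a lesser degree on chromosomes 1, 3 and 7, and not on chromosome 9. Over the overlapping pairs of a stretch, Spearman's rho between the serum and starved background was 0.921 on chromosome 7 (71 pairs), 0.781 on chromosome 3 (53 pairs), 0.731 on chromosome 1 (93 pairs) and 0.546 on chromosome 9 (220 pairs). The rho between the −log10 q values was 0.513 on chromosome 1, 0.479 on chromosome 3, 0.261 on chromosome 7 and 0.00865 on chromosome 9. These are correlations across peaks, which are not independent replicates, and a peak that meets several others enters more than 1 pair. On chromosome 9, 37 serum peaks met several starved peaks each, and the serum peak was the longer one in 191 of the 220 pairs (86.8%). On chromosome 1 it was the longer one in 21 of 93 (22.6%).

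**Figure D5:**
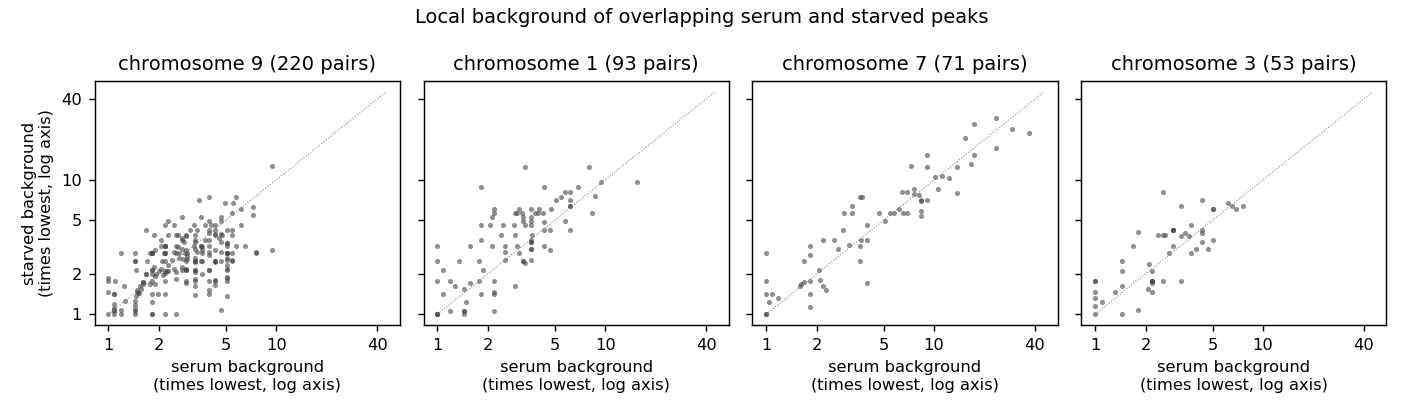
Background of each overlapping serum and starved peak, as multiples of the lowest of the respective list (horizontal and vertical log axes), 1 panel per stretch and 1 point per pair, with a dotted line of equality. The points of chromosome 7 follow the line up to backgrounds over 20 times the lowest, and those of chromosome 9 form a broader cloud with medians of 2.90 in serum and 2.50 in starved cells.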

How the data were processed

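The data are the 2 deposited peak lists, 1 per condition. Per the submitters' processing notes, FastQC, STAR 2.5.3a and MACS2 2.1.1 were named with build Rnor_6.0. Their options, duplicate handling and scaling are not given in the sources consulted, and read totals were not used here. Each deposited row gives a fold enrichment, which is a ratio of the peak to its background with 1 added to both, a p-value, a q-value and a pileup signal in stacked fragments. Each list was placed with its condition by the prefix that peak names share with library titles.

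Adding 1 to the pileup, dividing by the fold enrichment and subtracting 1 gave the local background. From it, a Poisson tail returned the deposited p-value of 100% of peaks in both lists, with log10 differences under 0.05. Positions are 1-based. No peak overlapped another of its list. Densities have exact 95% Poisson or conditional binomial intervals and shares exact 95% binomial ones. The overlap, background and ratio calculations were tested on simulated data. No p-value is given, since each condition has 1 precipitated library. Named peaks are, per stretch and list, the 3 with the lowest q and the longest, with the peaks they overlap. The members and lists were chosen with earlier results of these data known. Alternatives were other strengths, flank widths, overlaps, background limits and membership by overlap. Leaving out chromosome 9, and the split of strong peaks by background in each stretch, were added after seeing the data. Genes and sequences on Rnor_6.0 were not analysed here. Tools were scipy 1.17.1, numpy 2.4.6, pandas 2.3.3 and matplotlib 3.10.9 under Python 3.11.15.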

Additional observations from a re-analysis of the deposited data

How the results depend on the processing

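No paired analysis was possible because there is 1 precipitated library per condition, and no replicate could be left out. Values here pool the 4 stretches. In every setting tried the strong-peak density, or that of the peaks counted in its place, was higher in the stretches than in the flanks. The stretches were chosen on their strong peaks, so this direction was largely fixed in advance and supports nothing. The serum ratio of 18.0 was 1.79 over all peaks, 4.26 at a q of at most 0.05, 12.7 at a −log10 q of at least 10, 30.0 with flanks of 1 Mb, 31.7 over peaks without a raised background and 6.38 without chromosome 9. The serum ratio over peaks without a raised background rested on chromosome 9, which held 24 of the 26 such peaks in the stretches. The starved ratio of 2.15 was 1.68 over all peaks and 1.72 at a q of at most 0.05. Over peaks without a raised background it was 1.15 (interval 0.874 to 1.49). The overlap share of 52.8% of serum and 37.3% of starved peaks was 14.8% and 9.73% when 50% of both peaks had to overlap, 66.6% and 50.7% within 500 bp, and 35.2% and 20.0% between strong peaks. The starved share was 33.1% when both lists were held to a q of 0.05 or less and 25.6% without chromosome 9. The median background of 2.17 and 2.13 times the lowest was 3.25 and 2.92 for strong peaks and 1.88 and 1.93 without chromosome 9. A raised background, 54.6% of serum and 53.8% of starved peaks, held for 68.0% and 68.7% above 1.5 times and 15.6% and 12.4% above 5 times. Strong peaks had a median length of 922 and 498 bp. It was 481 and 255 bp over all peaks, 628 and 378 bp at a q of at most 0.05, and 651 and 562 bp without chromosome 9. The median gap of 4.36 and 7.47 kb was 16.8 and 30.6 kb at a −log10 q of 10 or more and 1.93 and 2.36 kb at a q of at most 0.05. The serum gap was 32.9 kb without chromosome 9. Beside these 36 values, 10 others lay within the interval of the reported value, and 0 changed direction. Read depth was not measured here. Of the starved peaks in the stretches, 32.1% are of 1 fragment.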

Other observations

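The chromosome 7 stretch has 143.6 kb, from 22093731 to 22237301, without a peak of either list, the longest such gap in it. The longest gaps in the other stretches were 35.8 kb on chromosome 9, 30.1 kb on chromosome 1 and 28.0 kb on chromosome 3. Right after the chromosome 1 stretch, the 100 kb from 64000001 held 0 serum and 18 starved peaks, of which 3 were strong. Starved peaks of 1 fragment made up 28.6% to 35.6% of the starved peaks in the single stretches, against 40.9% over the whole list.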
